A study of Homo sapiens with 12 samples.

Results

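hsa_circ_0060927 and hsa_circ_0003611 are circular RNAs (circRNAs), 2 of the 6384 counted. Their counts in the pulldown of the RNA-binding protein IGF2BP2 differed in opposite directions between drug-sensitive and drug-resistant breast cancer cells. Both were chosen by their counts in the IGF2BP2 pulldown of the 2 lines, so the pulldown values describe that choice and carry no test. The question for the IgG background, whose counts were also in view at the choice, was whether it showed the same shifts. The files do not pair these identifiers with host genes, and neither is given a gene name or a sequence here.

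Circular RNAs arise when the spliceosome joins a downstream splice donor to an upstream acceptor, a step called back-splicing. The closed ring has no free ends and resists exonucleases. IGF2BP2 binds RNA through RRM and KH domains and is known for stabilising its target mRNAs and promoting their translation, MYC mRNA among them. In RNA immunoprecipitation (RIP) an antibody recovers the protein with the RNA it holds, and a non-specific IgG recovers whatever sticks to the beads and antibody.

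MDA-MB-231, an established triple-negative breast cancer line, was used throughout, with 3 libraries for each pairing of line and antibody, 12 altogether. Parental cells (Sens) were labelled wild type and untreated. The derivative (Res) was labelled as having established resistance to BET inhibitors (BETi), drugs directed at the bromodomain and extra-terminal (BET) chromatin readers, and it was kept on the inhibitor until harvest. Resistance and the presence of the drug therefore cannot be told apart. Lysates of each line were precipitated with an anti-IGF2BP2 antibody or with normal rabbit IgG. None of the 12 libraries is of input RNA, so association with IGF2BP2 cannot be told apart from abundance in the line. The labels do not say how many resistant clones there were or whether replicates were separate cultures, so p-values measure a spread between libraries that may be technical. The table holds circRNAs and ERCC spike-in transcripts alone, so line markers could not be checked.

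The libraries were shallow. The IgG libraries held 1960 to 2989 circRNA counts for Sens and 3860 to 6036 for Res. The RIP libraries held 4448 to 5561 for Sens and 5179 to 8662 for Res. A count of 0 in 1 library allows a share of up to 0.0346% to 0.153% of its circRNA counts, taken as 3 counts. Limits and intervals account for error in counting reads alone. No molecular identifiers were used to collapse PCR copies, so error in the number of molecules may not be covered. A fold given as a bound sets the observed sum of one group against 3 counts in the other. It takes that observed sum as exact, so counting error could put the true fold below the bound.

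hsa_circ_0060927 was higher in the parental than in the resistant pulldown. It had 21, 13 and 19 counts in Sens RIP replicates 1, 2 and 3. In Res RIP it had 0, 0 and 1. Every Sens RIP library was above every Res RIP library. Of the 1307 circRNAs tested, 4.51% had RIP groups that did not overlap in this direction, a share from which nothing is read because this contrast chose the circRNA. edgeR called 2.37% of tested circRNAs between the RIP groups, in either direction, and nothing is read from that share either.

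As a share of circRNA counts, hsa_circ_0060927 took 0.359% of the summed Sens RIP libraries (53 of 14780 counts, exact 95% interval 0.269% to 0.469%). It took 0.00511% of Res RIP (1 of 19568 counts, 0.000129% to 0.0285%). CPM, counts scaled to a common library size adjusted by TMM (edgeR's composition correction), put the levels at 6185 ± 1304 CPM in Sens RIP and 107 ± 185 CPM in Res RIP (SD, n = 3). The ratio of summed counts on that scale was 73.2 (exact 95% interval 12.6 to 2943), and the width of the interval comes from the single Res count. Without Res RIP replicate 3, which holds that count, the level was at least 17.9-fold lower in Res, and without Res RIP replicate 2 the ratio was 41.9. At the Sens RIP share, the deeper Res RIP libraries would have held 70.2 counts. The single count seen there is given beside that number as a description.

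hsa_circ_0003611 had the reverse pulldown pattern. Its counts were 1, 2 and 0 in Sens RIP replicates 1, 2 and 3. In Res RIP they were 12, 23 and 13. Every Res RIP library was above every Sens RIP library. Non-overlapping groups in this direction were found for 8.11% of the tested circRNAs, and again nothing is read from that share.

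hsa_circ_0003611 took 0.0203% of summed Sens RIP counts (3 of 14780, exact 95% interval 0.00419% to 0.0593%). In Res RIP it took 0.245% (48 of 19568, 0.181% to 0.325%). Its levels were 349 ± 361 CPM in Sens RIP and 4008 ± 636 CPM in Res RIP (SD, n = 3). The ratio of summed counts was 11.6 (exact 95% interval 3.74 to 58.2), and 23.5 without Sens RIP replicate 2, which holds 2 of the 3 Sens counts. At the Res RIP share, 36.3 counts would have fallen in the Sens RIP libraries, against the 3 seen. Sens RIP replicate 3, with none, could still hold a share of up to 0.0674%.

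**Figure D1:**
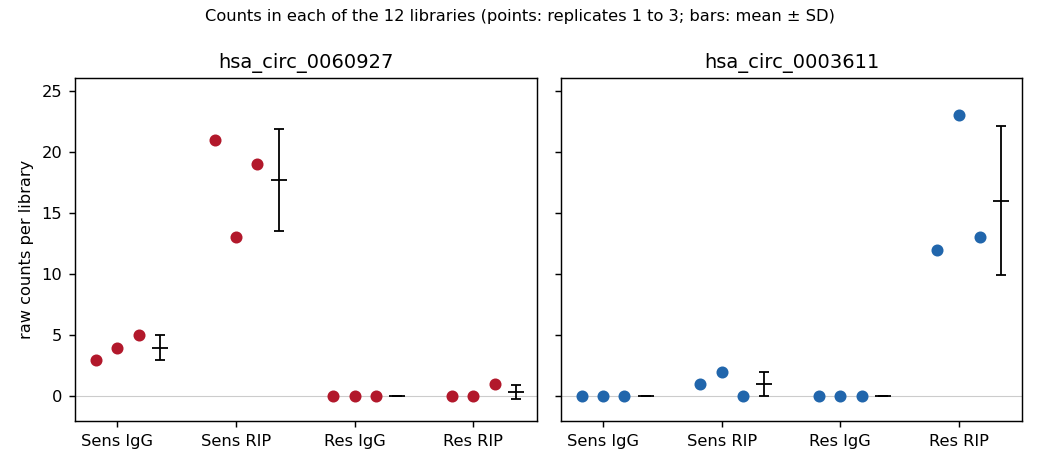
Raw counts (vertical axis) of hsa_circ_0060927 and hsa_circ_0003611 in each library of the 4 groups (horizontal axis). Points are replicates 1, 2 and 3, and bars are the mean ± SD. hsa_circ_0060927 reaches 13 to 21 counts in Sens RIP and 3 to 5 in Sens IgG, while hsa_circ_0003611 reaches 12 to 23 in Res RIP and is at 0 in all 6 IgG libraries.

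Libraries of the group where each circRNA was high, and the Sens IgG libraries for hsa_circ_0060927, differed as follows. The counts of hsa_circ_0060927 in Sens RIP had a mean of 17.7 and an SD of 4.16. The square root of the mean, the SD that counting alone would give, is 4.20. Its counts in Sens IgG had a mean of 4.0 and an SD of 1.0, against 2.0. Those of hsa_circ_0003611 in Res RIP had a mean of 16 and an SD of 6.08, against 4.00. An SD over 3 libraries is itself imprecise. Res RIP replicate 2, which held its 23 counts, was also the deepest library. Scaled to the circRNA total of each library (RPM), hsa_circ_0003611 was at 2095, 2655 and 2510 RPM in Res RIP replicates 1, 2 and 3, or 2420 ± 291 (SD, n = 3).

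Within its own pulldown each circRNA was among the most abundant. hsa_circ_0060927 ranked 24 of 3487 circRNAs detected in Sens RIP by summed counts. In Res RIP it was one of 1955 circRNAs with a single count. hsa_circ_0003611 ranked 45 of 4274 in Res RIP. In Sens RIP it was one of 319 circRNAs with 3 counts.

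Few circRNAs this abundant in one line were so sparse in the other. In Sens RIP, 38 circRNAs had at least 40 summed counts, a limit set after the values were seen. Of these, hsa_circ_0060927 alone had 3 or fewer in Res RIP, and the next lowest had 20. That limit is on raw counts and does not rank circRNAs by ratio. The circRNA with 20, hsa_circ_0001573, was far more abundant in Sens RIP, with 1724 counts. Its ratio cannot be ordered against that of hsa_circ_0060927, which rests on a single Res count. hsa_circ_0001573 was also lower in Res than in Sens in IgG, with 19 against 1180 counts. A large loss in Res was thus not limited to hsa_circ_0060927. The median share in Res RIP relative to Sens RIP was 0.925 for the 38. In Res RIP, 54 circRNAs had at least 40 counts. hsa_circ_0003611 alone had 3 or fewer in Sens RIP, and the next lowest had 7. The median share in Sens RIP relative to Res RIP was 0.816 for the 54. These counts describe how the pair was chosen.

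**Figure D2:**
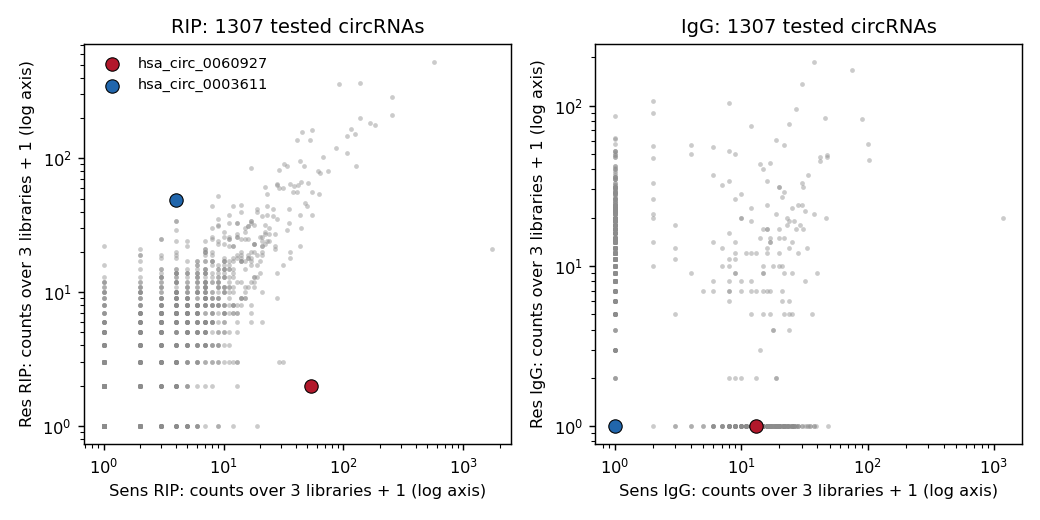
Counts summed over 3 libraries plus 1 in Sens (horizontal, log axis) and Res (vertical, log axis), for RIP and for IgG. Each grey point is one of 1307 tested circRNAs. In the RIP, hsa_circ_0060927 (53 and 1 counts) and hsa_circ_0003611 (3 and 48) lie on opposite sides of the cloud. In IgG, hsa_circ_0060927 (12 and 0) lies on the lower edge with other circRNAs seen in Sens alone, and hsa_circ_0003611 is at 0 in both lines.

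The IgG libraries share none with the RIP contrast. The pair was, however, chosen with the counts of all 12 libraries in view, so the IgG p-values below may not be independent of the choice. A shift in IgG could be measured for hsa_circ_0060927 alone. hsa_circ_0060927 was lower in Res than in Sens in the background as well. It had 3, 4 and 5 counts in Sens IgG replicates 1, 2 and 3, and 0 in each Res IgG library. The groups did not overlap, as for 17.5% of the tested circRNAs in this direction. Summed, it took 0.154% of Sens IgG counts (12 of 7794, exact 95% interval 0.0796% to 0.269%). In Res IgG, 0 of 15292 counts allows a share of up to 0.0196%.

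Set against 3 counts over the Res IgG group, the IgG level of hsa_circ_0060927 was at least 3.98-fold lower in Res on the TMM scale. That bound takes the 12 Sens IgG counts as exact. Without Res IgG replicate 3, the deepest of the IgG libraries, it was 2.37-fold. edgeR's quasi-likelihood test, fitted on all 12 libraries, gave an adjusted p of 0.000482 (Benjamini-Hochberg over 1307 circRNAs), and 3 of 3 Res libraries were lower than every Sens library. The exact two-sided permutation test on the 3 against 3 CPM values gave p = 0.1, the smallest this design allows. Such a call was common. In the IgG contrast 67.6% of tested circRNAs passed the threshold of 0.05, and 18.3% did so in this direction. The tested circRNAs include some with no IgG count, hsa_circ_0003611 among them, which could not be called. Others entered the test through the counts of a single IgG group. hsa_circ_0060927 ranked 320 of 1307 by p.

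The count behind the call is an ordinary one for this background. Of 475 circRNAs detected in Sens IgG, 369 (77.7%) were detected in all 3 libraries, and the median summed count was 12, the count of hsa_circ_0060927. The most frequent summed count above 0 was 7, in Sens IgG and in Res IgG alike. In Sens RIP, 13.3% of detected circRNAs were in all 3 libraries, and the median summed count was 1. When the IgG counts of each line were summed to 1 sample and divided by 7, hsa_circ_0060927 went from 12 to 2 against 0, and edgeR gave an adjusted p of 0.607. The fitted log2 difference, Res minus Sens, was -4.19 there and -4.70 in the fit on all 12 libraries, and neither is a bound since Res IgG is at 0. The direction could not change with Res IgG at 0, and division leaves fewer counts for the test by construction. With the sums undivided the adjusted p from edgeR was 0.00174. Both settings set 1 IgG sample against 1, assumed to vary like the RIP libraries, and were added after the data were seen. Over the other alternatives the adjusted p lay between 2.1e-05 and 0.0101. Whether its IgG counts stand for few molecules was not tested.

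**Figure D3:**
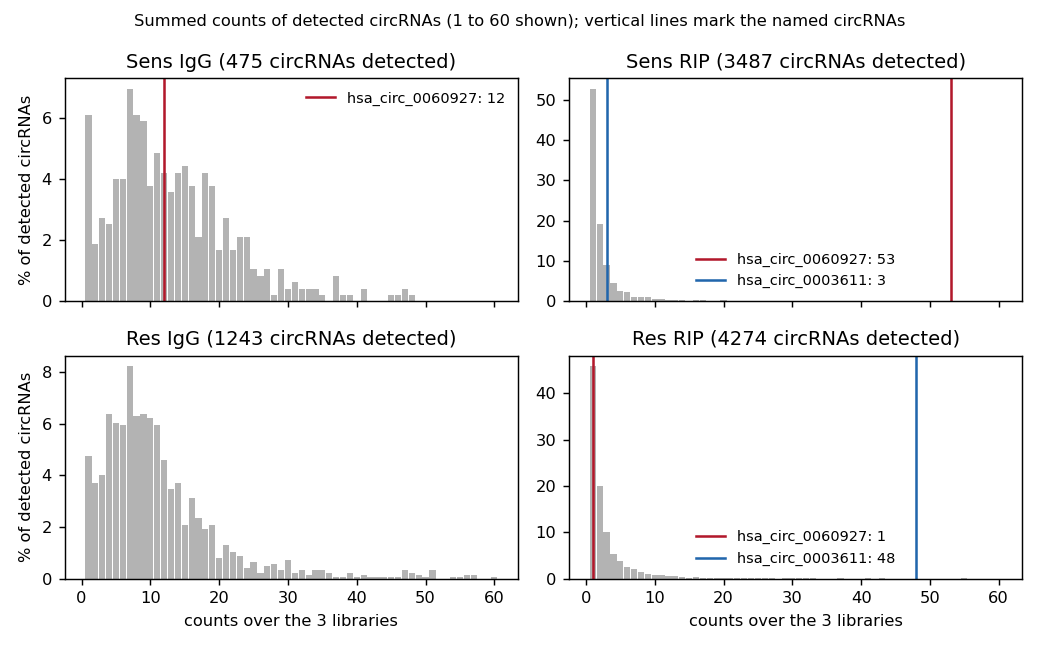
Percent of detected circRNAs (vertical axis) at each count summed over 3 libraries (horizontal axis, 1 to 60 shown), for each group. Vertical lines mark hsa_circ_0060927 and hsa_circ_0003611. The 12 counts of hsa_circ_0060927 lie at the median in Sens IgG, while its 53 in Sens RIP and the 48 of hsa_circ_0003611 in Res RIP lie far above the bulk at 1 or 2 counts.

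hsa_circ_0003611 had no count in any of the 6 IgG libraries. Its shift in the RIP thus had no measured counterpart in the background. The 0 of 7794 counts in Sens IgG allows a share of up to 0.0385%, and the 0 of 15292 in Res IgG a share of up to 0.0196%. At its Res RIP share, 19.1 counts would have fallen in Sens IgG and 37.5 in Res IgG. No fold or test of the IgG difference can be given. Absence from IgG was the usual state, since 4819 circRNAs (75.5%) had no IgG count in either line. A further 322 (5.04%) were seen in Sens IgG alone, the state of hsa_circ_0060927.

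circRNAs of similar abundance gave a closer frame. Taking those within a factor of 2 of the summed count of hsa_circ_0060927 in Sens RIP gave 48 circRNAs, itself included. Of these, 23 were detected in Sens IgG, and 8 in Sens IgG but not in Res IgG. The same window around hsa_circ_0003611 in Res RIP gave 89 circRNAs. Of these, 31 had no IgG count in either line and 40 had none in Res IgG. The IgG state of each member was thus one that other circRNAs of its abundance also had.

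The enrichment of the pulldown over IgG is given as a description, since its RIP libraries are those that chose the pair. In Sens, hsa_circ_0060927 was above IgG in the RIP, with 6185 ± 1304 against 671 ± 208 CPM (SD, n = 3). The groups did not overlap, as for 24.4% of tested circRNAs in this direction. The ratio of summed counts was 9.49 on the TMM scale (exact 95% interval 5.01 to 19.5). It was 2.33 (1.23 to 4.79) as a share of circRNA counts and 793 (418 to 1630) per ERCC count. Scaling moves every circRNA of a contrast by the same factor. ERCC transcripts took 97.8% to 97.9% of all counts in Sens IgG and 10.6% to 12.4% in Sens RIP, so the size of the enrichment depends on the scale, while its direction held on these 3. In Res, 1 RIP count against 0 in IgG gave no ratio.

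For hsa_circ_0003611 the enrichment was measurable in Res only. It was at least 24.8-fold above IgG in Res on the TMM scale, against 3 counts over the IgG group, or 14.8-fold without Res IgG replicate 3. The bound was 12.5-fold as a share of circRNA counts and 1944-fold per ERCC count. The groups did not overlap, as for 27.2% of tested circRNAs in this direction. In Sens, 3 RIP counts against 0 IgG counts gave no ratio.

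Between the lines, the scale mattered less within one antibody. The RIP ratio of hsa_circ_0060927, Sens over Res, was 70.2 by circRNA counts and 49.8 per ERCC count. That of hsa_circ_0003611, Res over Sens, was 12.1 and 17.0. The IgG bound of hsa_circ_0060927 was 7.85-fold by circRNA counts and 2.55-fold per ERCC count.

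**Figure D4:**
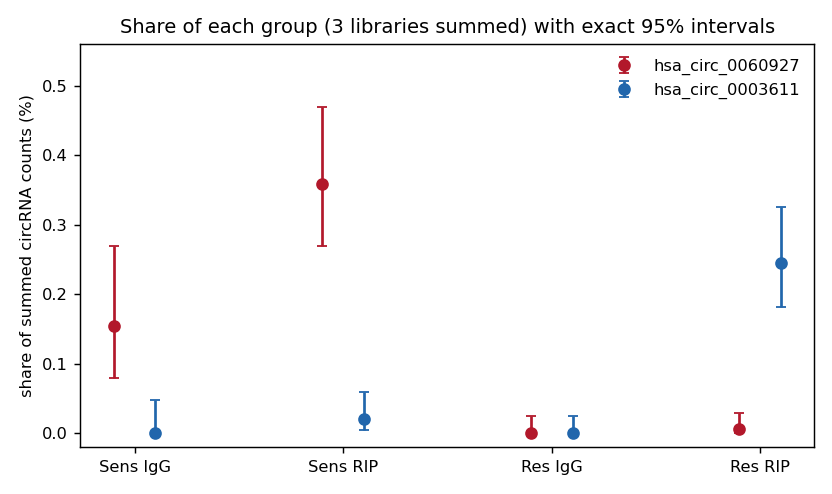
Percent of all circRNA counts of a group, its 3 libraries summed (vertical axis), taken by hsa_circ_0060927 and hsa_circ_0003611 in each group (horizontal axis). Bars are exact 95% intervals for counting error. hsa_circ_0060927 is at 0.154% in Sens IgG and 0.359% in Sens RIP, and hsa_circ_0003611 at 0.245% in Res RIP with an upper limit under 0.06% in the other groups.

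Across the 4 groups, the order of levels in CPM for hsa_circ_0060927 ran from Sens RIP through Sens IgG and Res RIP down to Res IgG. Neighbours in this order did not overlap, except Res RIP and Res IgG, which differ by 1 count. Sens IgG and Res RIP differ in line and antibody together. No share over the tested circRNAs was taken for them, so nothing is read from their lack of overlap. Per 1000 ERCC counts the middle of this order turned, with 0.0351 ± 0.0114 in Sens IgG and 0.744 ± 1.29 in Res RIP (SD, n = 3), and those groups overlapped. For hsa_circ_0003611 the order was Res RIP, then Sens RIP, then both IgG groups at 0. Sens RIP overlapped the IgG groups, since 1 of its libraries was at 0.

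The submitters scored each circRNA by a delta enrichment, RIP minus IgG in RPM, taken in Res minus Sens. A negative value was read by them as a decreased association with IGF2BP2 in resistant cells. Without input RNA, a change in abundance between the lines cannot be told apart from that reading. hsa_circ_0060927 had a RIP minus IgG difference of 1990 RPM in Sens and 64.4 RPM in Res. Its delta was -1926 RPM (SE 555). Sens IgG, at 1601 ± 536 RPM, was subtracted from 3591 ± 790 RPM in Sens RIP (SD, n = 3). The delta does not carry the line difference within IgG as a separate value.

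hsa_circ_0003611 had RIP minus IgG differences of 200 RPM in Sens and 2420 RPM in Res. Its delta was 2221 RPM (SE 207), all of it from the RIP libraries. By rank among 1307 tested circRNAs, hsa_circ_0060927 was number 61 from the lowest delta and hsa_circ_0003611 number 107 from the highest. With all counts of the file as denominator, ERCC included, they were number 5 and number 10, and per 1000 ERCC counts number 2 and number 17. The sign of each delta was the same with all 3 denominators.

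The circRNAs most alike in profile were found by Pearson correlation of log2 CPM over the 12 libraries, among 1305 others. For hsa_circ_0060927 these were hsa_circ_0003692 (r = 0.924) and hsa_circ_0030586 (r = 0.923). Summed RIP counts of hsa_circ_0003692 were 28 for Sens and 2 for Res, and its IgG counts 11 and 6. It thus had IgG counts in both lines, unlike hsa_circ_0060927. hsa_circ_0030586 had 8 in Sens RIP and 0 elsewhere. For hsa_circ_0003611 they were hsa_circ_0005465 (r = 0.974), with 20 counts in Res RIP and 1 in Sens RIP, and hsa_circ_0070467 (r = 0.965), with 24 and 2. Both had no IgG count. Correlations above 0.9 were found for 4 circRNAs with hsa_circ_0060927 and 21 with hsa_circ_0003611. The libraries are shared by all profiles, and many values are 0, so these correlations are descriptions.

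Other circRNAs had the same presence and absence at lower counts. Like hsa_circ_0060927, 56 of 6384 circRNAs were in all 3 Sens RIP libraries with at most 1 count over Res RIP. Their median Sens RIP sum was 4, and the highest below the 53 of hsa_circ_0060927 was 18. The limit of 1 was taken from hsa_circ_0060927 itself. Just outside it, hsa_circ_0000591 had 30 counts in Sens RIP and 2 in Res RIP. It also had 19 in Sens IgG and 0 in Res IgG, so a like pattern was not limited to hsa_circ_0060927. Of the 56, 4 were seen in Sens IgG but not Res IgG, hsa_circ_0060927 among them, and 45 had no IgG count. Like hsa_circ_0003611, 325 circRNAs were in all 3 Res RIP libraries with at most 3 counts over Sens RIP. Their median Res RIP sum was 6, and the next highest after 48 was 33. Of the 325, 227 had no IgG count in either line. Res RIP held more counts than Sens RIP, 19568 against 14780, so the numbers 56 and 325 are not compared.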

How the data were processed

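RIP sequencing libraries were used as the raw counts per circRNA and per ERCC transcript that the authors deposited. The labels' protocols describe spike-in RNA added to equal amounts of purified RNA and scaling with RUVSeq, which the deposited counts do not carry. GRCh37 is the build in the submitters' processing notes. The aligner, circRNA caller and counting rule are not given in the sources used here. None of the identifiers matched the RefSeq gene table (0 matches).

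Neither library sizes nor tests included the 57 ERCC rows. A circRNA was tested if 3 or more libraries held 2 or more counts of it (1307 of 6384 were), using edgeR 4.0.16 (R 4.3.3), with TMM factors, the quasi-likelihood test, 12 libraries in 1 fit and Benjamini-Hochberg adjustment at 0.05. The prior degrees of freedom were infinite, so the spread was pooled over circRNAs. The code was first tested on simulated data. Exact intervals (Clopper-Pearson, 95%) and permutation tests used SciPy 1.17.1. Groups and replicate numbers came from sample titles, and library names in the descriptions tied columns to samples. The circRNAs named were the pair and, for each, the 2 tested circRNAs of highest Pearson r over log2 CPM (prior count 2). hsa_circ_0001573 and hsa_circ_0000591 were named in addition, after the values were seen. The pair and the rules were chosen with earlier results of these data known. Alternatives were other scalings, DESeq2 1.42.0, limma-voom (limma 3.58.1), other filters, a replicate block, own-contrast fits and each library left out. No columns were unmapped.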

Additional observations from a re-analysis of the deposited data

How the results depend on the processing

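The lower IgG level of hsa_circ_0060927 in Res kept its call (edgeR, DESeq2 or limma-voom adjusted p under 0.05) under 22 of the 23 alternatives run. Its direction could not reverse under any of them, since every Res IgG library was at 0. The exception was IgG sums divided by their modal sum (edgeR adjusted p = 0.607, fitted log2 -4.19 against -4.70, no bounds), which leaves 2 counts against 0. This setting and the undivided sums, counted among the 22, rest on 1 IgG sample per line with the spread of the RIP libraries. Without 1 library at a time the edgeR adjusted p of hsa_circ_0060927 was 0.000405 to 0.0101, and the replicate block gave 0.000965. Leaving out a RIP library left its IgG counts unchanged, so those settings could hardly have moved the call. The IgG counts were also in view when the pair was chosen. In the fit on all 12 libraries, 67.6% of tested circRNAs had such a call. Deviations of same-numbered libraries from group means correlated between -0.0521 and 0.0503 over 18 pairs. Those of the 36 other pairs correlated between -0.0782 and 0.0609. Most counts are low, so these values cannot tell whether same-numbered libraries shared a culture or a day. IgG calls numbered 883, with 364 by DESeq2, 259 of 370 tested with at least 5 counts in 3 libraries, 5 with divided IgG sums, and 792 to 886 without 1 library. RIP calls, used only as background, numbered 31 (2.37%). They numbered 58 with ERCC totals, 11 unscaled, 19 by DESeq2, 53 by limma-voom, 17 unfiltered, 17 with the replicate block, and 8 (without Res IgG replicate 2) to 39 (without Sens IgG replicate 3) without 1 library. Among the untested values, log2 RIP over IgG of hsa_circ_0060927 in Sens was 3.25 (TMM), 1.22 with circRNA totals, 9.63 with ERCC totals, 2.14 unscaled and 2.97 to 3.41 without 1 library. The bound for hsa_circ_0003611 in Res was 4.63, 3.64, 10.93, 4.00 and 3.88 to 4.74 on the same settings. The log2 Res over Sens RIP ratio was -6.35 to -4.16 for hsa_circ_0060927 and 2.99 to 4.55 for hsa_circ_0003611 without 1 library (-4.16, without Res RIP replicate 3, is a bound). Deltas were -3081 and 2036 RPM with all counts of the file, -26.8 and 24.9 per 1000 ERCC counts, and -2359 to -1586 and 2103 to 2383 RPM without 1 library. The causes of these moves were not tested. IgG alternatives for hsa_circ_0003611, its Sens enrichment and the Res enrichment of hsa_circ_0060927 gave no value, since all counts were at or under 3. Depth limits every absence to the shares given with it.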
